A study of Canis lupus familiaris with 12 samples.

Results

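The heat shock and endoplasmic reticulum (ER) chaperones are the proteins that help other proteins fold, keep them from clumping and pass damaged ones on for degradation. They were taken as a list of 37 gene symbols, all of which occur once in the hippocampal table of 31158 gene models. By the main site of their products, 25 were assigned to the cytosol and nucleus, 3 to the mitochondrion and 9 to the ER. All 37 exceeded the low-value filter, a mean of 0.5 RPKM over the 6 libraries, which left 16090 gene models for testing.

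The values come from bulk messenger RNA of beagle hippocampus, in 2 groups of 3 libraries. The pacing dogs had undergone rapid atrial pacing for 2 weeks, in which electrodes drive the atria at a high rate to induce atrial fibrillation, and the sham dogs had a sham operation. The series asks what atrial fibrillation does to the brain and to cognition. The labels used here name no genotype, age, sex or hippocampal subfield of the sample.

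Cytosolic HSP70 proteins bind exposed greasy stretches of unfolded proteins in a cycle that J-domain proteins start and nucleotide exchange factors such as the BAG proteins and HSP110 end, and hand some clients on to HSP90. In stressed cells heat shock factor 1 (HSF1) switches on the inducible genes of this set, while HSPA8 is made at all times and in neurons also strips clathrin from endocytic vesicles. Mitochondria keep their own HSP70 (HSPA9) and the HSPD1 and HSPE1 chaperonin, and the ER has the HSP70 HSPA5 (BiP) and the HSP90 HSP90B1. Unfolded protein in the ER sets off the unfolded protein response, which raises BiP, its partners and the degradation factor HERPUD1.

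No chaperone gene passed the test between pacing and sham hippocampus (0 of 37, limma-trend on log2(RPKM + 1), Benjamini-Hochberg adjusted p under 0.05 over all 16090 genes), against 0.0249% of all genes tested, or 4 genes. The difference was below 0, meaning lower in pacing, for 30 of the 37, which compares with 58.9% of all genes. At an unadjusted p under 0.05, 7 were lower in pacing (HSPA8, HSPB8, DNAJB1, HSF1, STIP1, HSPA5 and HERPUD1), where 6.3% of all genes were, and 0 were higher, where 2.85% of all genes were. Every pacing library lay below every sham library for 5 genes (HSPA8, HSPB8, STIP1, DNAJB9 and HERPUD1; 11.3% of all genes) and above every sham library for 0 (4.92% of all genes). The median log2 difference was -0.09 over the 37 chaperones and -0.04 over all genes tested.

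These counts depended on scaling and on single libraries. With median-of-ratios scaling 23 of the 37 were below 0 (46.9% of all genes) and with TMM scaling 24 (49.8%), and under either 1 gene, DNAJB1, was left lower at an unadjusted p under 0.05 (4.45% and 4.72% of all genes). The median over all genes was 0.01 with median-of-ratios scaling and 0.00062 with TMM scaling. The number lower at that p was 0 without pacing 1 (3.37% of all genes), 0 without pacing 2 (3.09%) and 1 without pacing 3 (3.63%). It was 11 without sham 1 (13.1%), 4 without sham 2 (6.94%) and 1 without sham 3 (4.81%). The number of chaperones with every pacing library below every sham library was 15 without sham 1 (25.6% of all genes), 10 without sham 2 (19%) and 5 without sham 3 (15.7%), where fewer libraries are compared. With limma-voom on the recovered reads 0 of 37 passed as well. DNAJB1 was the only chaperone to pass after adjustment under any of the 18 alternatives, without sham 1.

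Libraries held 35003483 to 51789497 assigned reads. On the first principal component of all genes tested, which took 45.3% of the variance, sham 2 stood at 39.6 and sham 3 at 8.61, with the other 4 libraries between -13.5 and -9.62. Sham 3 stood at 29.1 on the second component (25.5% of the variance). The libraries carried hippocampal markers, with 9 of 9 excitatory neuron genes and 10 of 11 subfield genes tested. Summed excitatory neuron markers were 869 to 1133 RPKM in pacing and 683 to 1002 RPKM in sham. In bulk tissue, fewer cells of a type and less RNA per cell cannot be told apart.

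**Figure D1:**
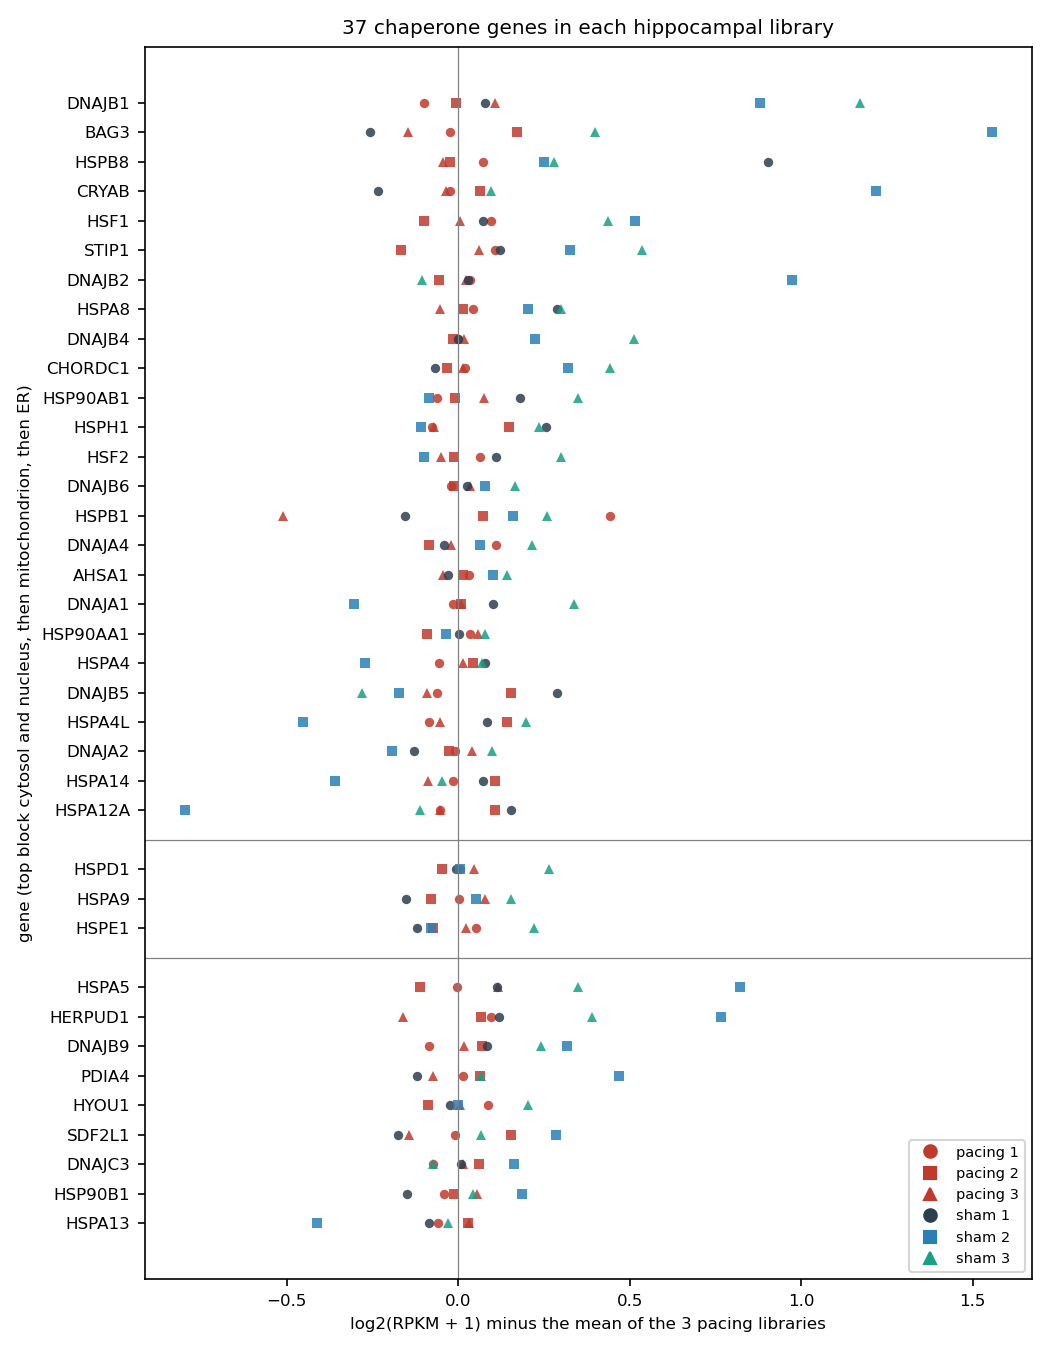
The 37 chaperone genes by compartment, ordered within each by log2 difference. Each library is plotted as its log2(RPKM + 1) minus the mean of the 3 pacing libraries. The pacing libraries share a colour and each sham library has its own. The pacing points lie close together for most genes, less so for HSPB1, while sham 2 is far to the right for BAG3, CRYAB and DNAJB2 and sham 3 for DNAJB1.

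HSPA8, the constitutive cytosolic HSP70 (chromosome 5, 11292219 to 11296851, CanFam3.1 coordinates as deposited), had 513, 503 and 480.2 RPKM in the pacing libraries, against 608, 574 and 614 RPKM in the sham libraries. Every pacing library was below every sham library, and the spread within each group was small. The means were 499 ± 16.9 RPKM in pacing and 599 ± 21.5 RPKM in sham (SD, n = 3 each). The log2 difference was -0.26 with a standard error of 0.10 and a 95% interval of -0.49 to -0.04, at an unadjusted p of 0.0281 and an adjusted p of 0.49 (limma-trend). It was below 0 in the main analysis and in all 18 alternatives, between -0.29 and -0.20, with adjusted p of 0.243 to 0.975 over the alternatives. Of these, the filters, the variance trend and the replicate block cannot change the log2 difference, so their sign was fixed in advance. HSPA8 has processed copies in mammalian genomes, as do HSP90AA1, HSPD1 and HSPE1, and the sources used here do not state how reads that match several copies were counted, so these values are uncertain to that extent.

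The other 5 cytosolic HSP70 and HSP110 genes did not share the pattern of HSPA8. HSPA4 and HSPA4L, exchange factors of the HSP110 family, had means of 116 ± 4.11 and 87.0 ± 7.66 RPKM in pacing, against 113 ± 15.1 and 84.9 ± 19.3 RPKM in sham. HSPA12A, a distant and brain-rich HSP70 relative, had 45.9, 51.3 and 45.8 RPKM in pacing and 53, 27 and 44 RPKM in sham, with sham 2 the lowest. HSPA14, an HSP70 that works at the ribosome, had 22.8 ± 1.64 RPKM in pacing and 21.2 ± 3.30 RPKM in sham. HSPH1, the heat-inducible HSP110, had 135 ± 12.3 RPKM in pacing and 148 ± 20.3 RPKM in sham. Of these 6 genes 2 were lower in pacing by sign and the median log2 difference was 0.05. Without sham 2, all 6 were below 0 and the median was -0.11, so that 1 library set the sign. In sham 2, 5 of the 6 were below every pacing library, and HSPA8 alone was above. The level of HSPA8 over that of HSPA4 was 4.31 ± 0.263 in pacing and 5.33 ± 0.569 in sham (RPKM ratios, SD, n = 3 each). Several such ratios between partner genes were computed, and most overlapped between the groups. HSPA8 over HSPH1 was among those, with 3.72 ± 0.329 in pacing and 4.10 ± 0.455 in sham.

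The cytosolic HSP90 genes gave the highest levels of the list. HSP90AA1, the stress-responsive form, had 2630.2 ± 142 RPKM in pacing and 2656 ± 107 RPKM in sham, which ranked 17 among all genes tested by mean level, and its log2 difference was -0.01 (SE 0.12). HSP90AB1, the constitutive form, had 737, 765 and 811 RPKM in pacing, against 872, 725 and 982 RPKM in sham. Sham 1 and sham 3 were above every pacing library and sham 2 below, so the groups overlapped, and the log2 difference of -0.15 (SE 0.14) had an adjusted p of 0.748. It was -0.26 without sham 2 and -0.046 without sham 3.

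The 4 co-chaperones of HSP90 and HSP70 all had a log2 difference below 0, with a median of -0.28, and all 4 were above every pacing library in sham 2 and in sham 3. All 4 were below 0 with any 1 library left out, but the median was -0.13 without sham 2 and -0.17 without sham 3. STIP1 (HOP), the adaptor that holds HSP70 and HSP90 together during client transfer (chromosome 18, 52854262 to 52868187), had 60.2, 49.6 and 58.3 RPKM in pacing, against 60.8, 70.2 and 81.5 RPKM in sham. The groups did not overlap, though pacing 1 and sham 1 lay within 1 RPKM of each other, and the log2 difference was -0.33 (SE 0.14, unadjusted p 0.0443, adjusted p 0.54). BAG3, an exchange factor that steers clients to autophagy, had 8.74, 10.2 and 7.94 RPKM in pacing, against 7.29, 28.1 and 12.1 RPKM in sham. Sham 2 alone was 3.14 times the pacing mean and sham 1 was below every pacing library, so that the log2 difference of -0.57 had a standard error of 0.41. It was -0.07 without sham 2 and -0.98 without sham 1. CHORDC1, an HSP90 partner, averaged 7.31 ± 0.162 RPKM in pacing and 8.86 ± 1.73 RPKM in sham. AHSA1, which speeds the ATP cycle of HSP90, averaged 107 ± 2.90 RPKM in pacing and 113 ± 6.99 RPKM in sham.

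Among the 8 cytosolic J-domain genes, whose products load clients onto HSP70, 6 had a log2 difference below 0 and the median was -0.08. DNAJB1 (HSP40), a classical heat-inducible HSF1 target (chromosome 20, 48120604 to 48131091), had 4.82, 5.21 and 5.72 RPKM in pacing, against 5.58, 10.5 and 13.1 RPKM in sham. Sham 1 lay within the pacing range, while sham 2 and sham 3 were 2.00 and 2.49 times the pacing mean. The log2 difference of -0.71 (SE 0.26, 95% interval -1.32 to -0.10) was the lowest of the list, at an unadjusted p of 0.0287 and an adjusted p of 0.492. Without sham 1 it was -1.03 with an adjusted p of 0.0446, and without sham 3 it was -0.48, against adjusted p of 0.0446 to 0.975 over all alternatives.

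DNAJB4, also heat-inducible, was nearly constant in pacing at 35.5, 35.1 and 35.9 RPKM and read 35.5, 41.6 and 51.1 RPKM in sham, with the same order of sham libraries as DNAJB1. DNAJA1, a farnesylated partner of HSPA8, was the least variable chaperone in pacing, with a coefficient of variation of 0.98%. It had 318, 323 and 323 RPKM in pacing, against 345, 260.2 and 407 RPKM in sham, so that sham 2 was the lowest and sham 3 the highest library. DNAJB2, a neuronal J protein that protects against aggregates, had 49.1, 46.0 and 48.7 RPKM in pacing and 48.9, 95 and 44.4 RPKM in sham. Sham 2 alone stood apart for DNAJB2, at 1.98 times the pacing mean, and its log2 difference of -0.30 was 0.039 without that library. DNAJA2, DNAJA4, DNAJB5 and DNAJB6 had log2 differences between -0.09 (DNAJB6) and 0.08 (DNAJA2), and mean levels between 17.1 (DNAJB5) and 113 RPKM (DNAJA2) in pacing.

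The 3 small heat shock proteins, which hold unfolding proteins without using ATP, had log2 differences below 0 with a median of -0.36, which is the value of CRYAB, and the highest sham library differed among them. Without sham 2 CRYAB was at 0.071 and the median was -0.052. HSPB8, the partner of BAG3 in chaperone-assisted autophagy (chromosome 26, 15337718 to 15349993), had 10.7, 9.93 and 9.76 RPKM in pacing, against 19.8, 12.2 and 12.5 RPKM in sham. The groups did not overlap and sham 1 was the highest, at 1.95 times the pacing mean. Its log2 difference was -0.48 (SE 0.18, unadjusted p 0.0316, adjusted p 0.506), and without sham 1 it was -0.26. CRYAB (αB-crystallin), in brain found mainly in oligodendrocytes and astrocytes, had 73.0, 77.6 and 72.4 RPKM in pacing, against 63.0, 174 and 79.4 RPKM in sham. The highest value was again a single library, sham 2 at 2.34 times the pacing mean. HSPB1 varied most in pacing, with 9.51, 7.13 and 4.43 RPKM and a coefficient of variation of 36.2%, and had 5.96, 7.64 and 8.26 RPKM in sham.

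The heat shock factors were low in level. HSF1, the master regulator of the heat shock response (chromosome 13, 37724741 to 37745259), had 7.58, 6.5 and 7.06 RPKM in pacing, against 7.45, 10.5 and 9.86 RPKM in sham. Sham 1 lay within the pacing range and the other sham libraries above it, giving a log2 difference of -0.34 (SE 0.14, unadjusted p 0.0415, adjusted p 0.536). HSF2, which pairs with HSF1 and also acts in brain development, had 4.54 ± 0.220 RPKM in pacing and 4.98 ± 0.819 RPKM in sham (SD, n = 3 each).

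**Figure D2:**
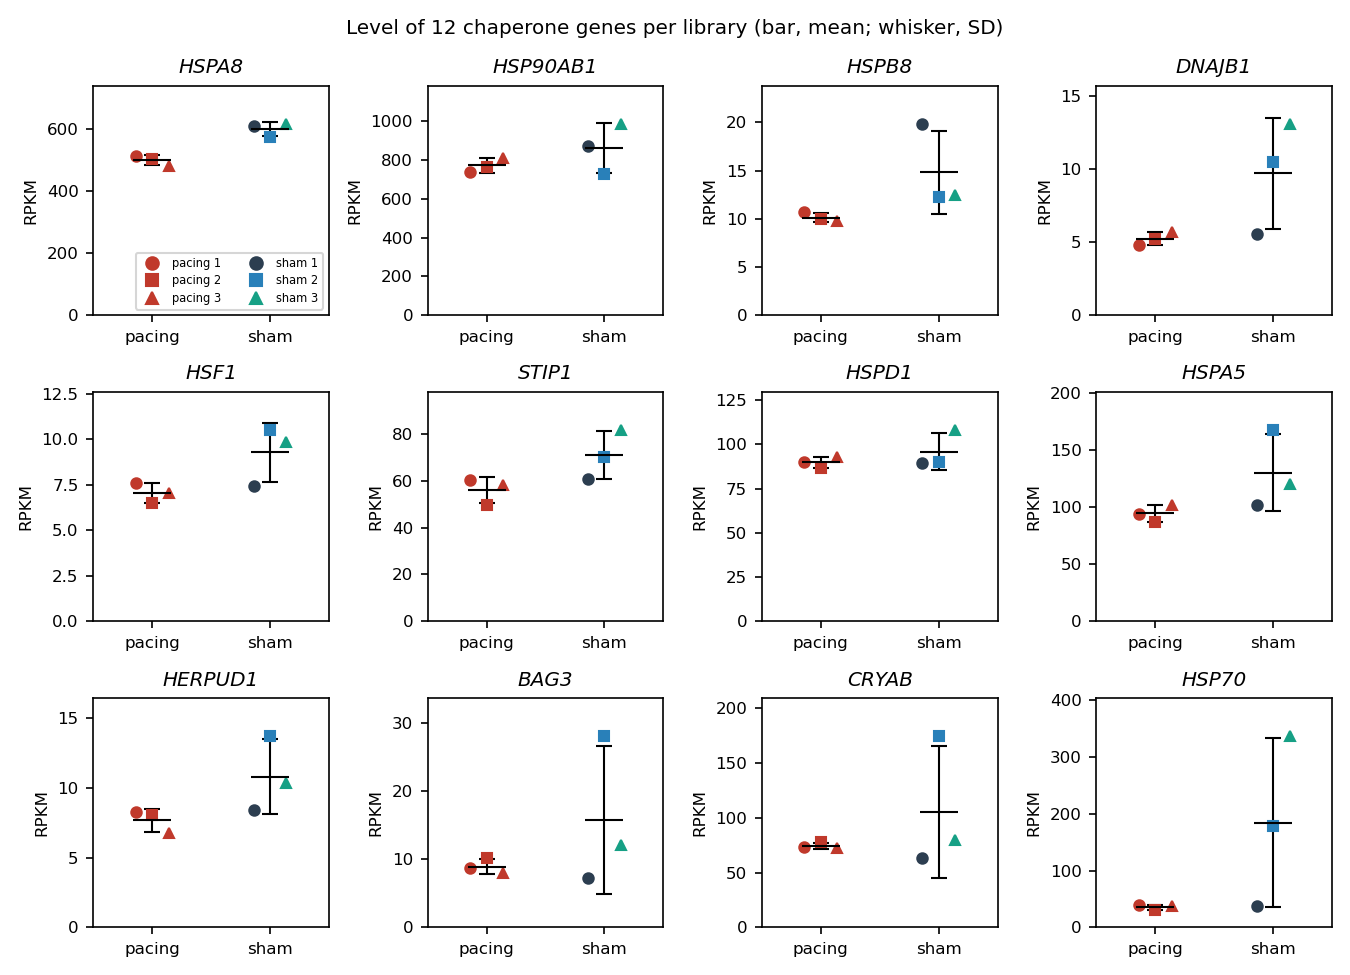
RPKM of 12 chaperone genes in each library, with pacing left of sham, a bar at the group mean and whiskers of 1 SD (n = 3). HSPA8 shows 2 tight and separate groups, while for DNAJB1, HSPA5, BAG3, CRYAB and HSP70 1 or 2 sham libraries lie far above the rest.

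The 3 mitochondrial chaperones had log2 differences near 0, of -0.02 for HSPA9, -0.09 for HSPD1 and -0.01 for HSPE1. HSPD1 (HSP60), which forms the folding chamber of the matrix (chromosome 37, 7010421 to 7025912), had 90.1, 86.8 and 92.8 RPKM in pacing, against 89.4, 90.1 and 108 RPKM in sham. The groups overlapped and sham 3 alone was high, and the log2 difference of -0.09 (SE 0.11, 95% interval -0.34 to 0.16, adjusted p 0.81) was 0.00095 without sham 3. HSPE1 (HSP10), the lid of that chamber, had 28.4, 26.0 and 27.8 RPKM in pacing, against 25.1, 25.9 and 32.1 RPKM in sham. HSPA9 (mortalin), the motor of protein import, had 93.7, 88.6 and 98.9 RPKM in pacing, against 84.1, 97.1 and 104 RPKM in sham. Sham 3 was the highest of the 6 libraries for all 3. The level of HSPD1 over that of HSPE1 was 3.28 ± 0.1 in pacing and 3.47 ± 0.0972 in sham, and the paired genes share 28 bases of exon on opposite strands. That ratio did not overlap between the groups, whereas most of the partner ratios computed did. Under median-of-ratios scaling the median of the 3 log2 differences was 0.05, under TMM scaling 0.03 and with reads outside the mitochondrial genome as the base 0.01, so that even its sign was not fixed.

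In the ER, 8 of 9 genes had a log2 difference below 0, and the median was -0.06. Of the 7 genes of the ER HSP70 and HSP90 machinery 6 were below 0, against 3 without sham 2 and 3 with median-of-ratios scaling. HSPA5 (BiP), the ER HSP70 and the best known target of the unfolded protein response (chromosome 9, 57850870 to 57855607), had 94.0, 87.1 and 102 RPKM in pacing, against 102, 167 and 120.5 RPKM in sham. Sham 1 reached only the top of the pacing range and the groups overlapped, while sham 2 was 1.77 times the pacing mean. The log2 difference was -0.43 (SE 0.18, unadjusted p 0.0486, adjusted p 0.544), and without sham 2 it was -0.23. HERPUD1, which helps to move misfolded proteins out of the ER for degradation (chromosome 2, 59388492 to 59400028), had 8.26, 8.06 and 6.75 RPKM in pacing, against 8.40, 13.7 and 10.3 RPKM in sham. The groups did not overlap, sham 2 was again on top at 1.78 times the pacing mean, and the log2 difference was -0.42 (SE 0.17, unadjusted p 0.0428, adjusted p 0.539). Without sham 2 it was -0.25.

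DNAJB9 (ERdj4), a J-domain partner of BiP, had 7.73, 8.70 and 8.37 RPKM in pacing, against 8.82, 10.5 and 9.94 RPKM in sham, with no overlap and sham libraries in the same order as for HERPUD1. Its log2 difference of -0.21 had an unadjusted p of 0.0746, and 4.57% of its exon length is shared with THAP5 on the other strand. PDIA4, a disulfide isomerase, averaged 27.4 ± 1.37 RPKM in pacing and 30.7 ± 6.81 RPKM in sham, where sham 2 was 38.3 RPKM. SDF2L1, a component of the BiP complex, averaged 7.90 ± 0.924 RPKM in pacing and 8.31 ± 1.47 RPKM in sham.

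The abundant ER chaperone HSP90B1 (GRP94), which folds secreted and membrane proteins, did not separate the groups, with 585, 597 and 625 RPKM in pacing and 542, 684 and 620.1 RPKM in sham. HYOU1, the ER exchange factor, had 52.8 ± 3.28 RPKM in pacing and 55.2 ± 5.01 RPKM in sham, and DNAJC3 (p58IPK), a lumenal J protein, had 19.3 ± 0.961 RPKM in pacing and 19.8 ± 1.75 RPKM in sham. HSPA13, an ER-associated HSP70 relative, was the single ER gene with a positive difference, 0.18 (SE 0.12), and had 14.6 ± 0.544 RPKM in pacing and 12.9 ± 1.89 RPKM in sham. The ratio of HSPA5 to HSP90B1 levels was 0.161, 0.146 and 0.164 in the pacing libraries, against 0.188, 0.245 and 0.194 in the sham libraries, a pair picked after the values were seen.

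**Figure D3:**
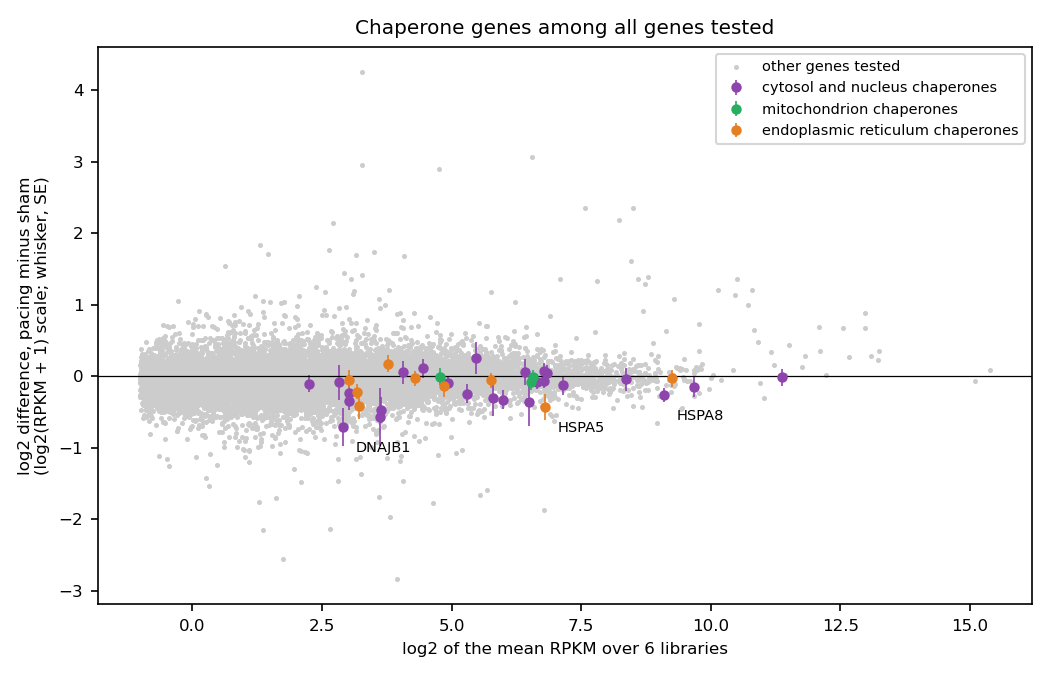
Log2 difference, pacing minus sham, against log2 mean RPKM for all genes tested (grey) and the 37 chaperones (coloured by compartment, with whiskers of 1 standard error). The chaperones reach from DNAJB1 at -0.71 to HSPA12A at 0.25, and their medians by compartment are -0.10, -0.02 and -0.06.

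Set side by side, the compartments had median log2 differences of -0.10 for the cytosol and nucleus, -0.02 for the mitochondrion and -0.06 for the ER, and 19 of 25, 3 of 3 and 8 of 9 genes below 0. The ER median minus the cytosolic one was 0.04, and leaving out single libraries gave -0.04 (without sham 1) to 0.12 (without sham 2), so the data did not place either compartment below the other. The ER median itself was -0.17 without sham 1 and 0.027 without sham 2. All chaperones together took 1.81 ± 0.0445% of all assigned reads in pacing and 1.90 ± 0.108% in sham. The cytosolic genes took 1.5 ± 0.0357% in pacing and 1.57 ± 0.113% in sham, the ER genes 0.244 ± 0.00692% in pacing and 0.259 ± 0.0310% in sham, and the mitochondrial genes 0.0708 ± 0.00326% in pacing and 0.0729 ± 0.00776% in sham.

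The compartments differed in which sham library was high. Sham 3 was the highest of the 6 libraries for 14 of 25 cytosolic genes, 3 of 3 mitochondrial genes and 1 of 9 ER genes, where it was the highest for 24.8% of all genes. Sham 2 was the highest for 7 of 9 ER genes, 4 of 25 cytosolic genes and 0 of 3 mitochondrial genes, where it was the highest for 33% of all genes. Against the pacing range, sham 3 was above every pacing library for 28 of the 37 (44.7% of all genes) and below for 4 (26.4%). Sham 2 was above for 19 (44.4%) and below for 12 (31.7%), and sham 1 above for 12 (32.2%) and below for 10 (28.9%), shares close to the background. The SD of the log2 values was larger in sham than in pacing for 35 of the 37 genes, where 78.8% of all genes had it so. Reads of the mitochondrial genome made up 8.70, 8.34 and 9.19% of assigned reads in pacing, against 8.50, 7.23 and 6.05% in sham, lowest in sham 3. The part of that library difference in the counts above was not tested.

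**Figure D4:**
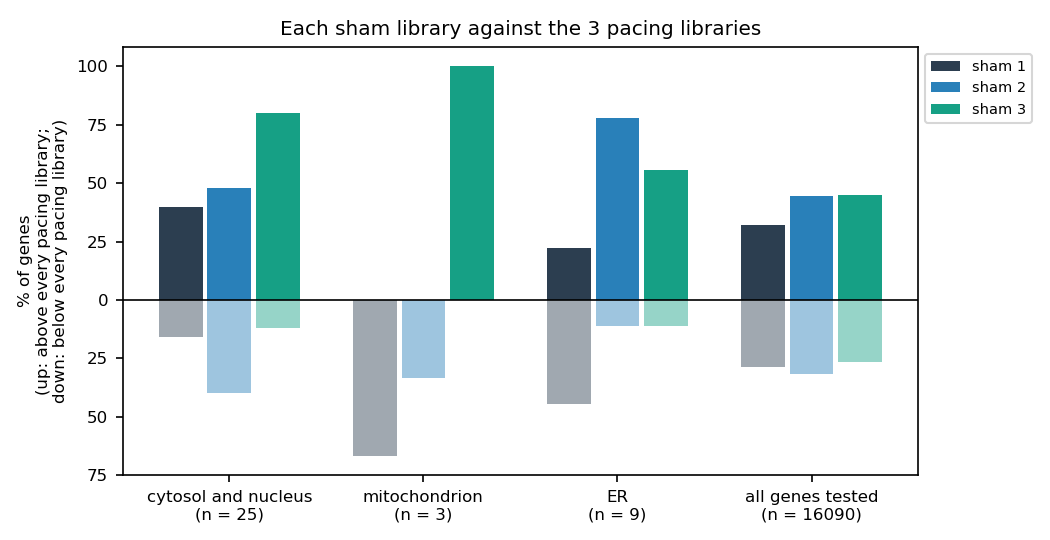
For each sham library, the percent of genes above every pacing library (upward) and below every pacing library (downward), for cytosolic (25), mitochondrial (3), ER (9) and all genes tested (16090). Sham 2 is above for 7 of 9 ER genes and sham 3 for 20 of 25 cytosolic and 3 of 3 mitochondrial genes.

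Markers of other cells also differed between the sham libraries. All 9 oligodendrocyte markers were highest in sham 2 and lowest in sham 3, with sums of 1638, 2037 and 1844 RPKM in pacing, against 1650, 2976 and 1183 RPKM in sham. Astrocyte markers (7 of 8 in the table) summed to 1976, 2199 and 1935 RPKM in pacing, against 1686, 3017 and 1875 RPKM in sham. The 8 choroid plexus markers, of which 3 were tested, summed to 76.5 to 159 RPKM in pacing and 6.25 to 456 RPKM in sham. Most of the high sums was the transthyretin gene TTR, which had 155, 70.5 and 103 RPKM in pacing, against 2.46, 449 and 42.9 RPKM in sham. The other tested ones, KL and CLIC6, were highest in pacing 2. Immediate early genes, which respond to neuronal activity, summed to 16.1, 16.4 and 15.4 RPKM in pacing, against 16.1, 58.5 and 29.3 RPKM in sham, and all 10 tested were highest in sham 2. Ependymal markers (7 of 8 tested) were all below 0 in their log2 difference, with a median of -0.46. Of the ependymal and the immediate early genes tested, 3 each were lower at an unadjusted p under 0.05 (limma-trend), where 6.3% of all genes were. The ependymal markers are the subject of the sums that follow. They summed to 33.8, 22.4 and 24.7 RPKM in pacing, against 49.8, 25.6 and 43.6 RPKM in sham, with sham 2 near the pacing libraries. No marker in these 5 lists was at 0 in every library. In other cell lists, 2 of 9 microglial and 2 of 8 endothelial markers were higher at that unadjusted p, where 2.85% of all genes were. So were 1 of 8 pericyte and smooth muscle markers and 1 of 7 inhibitory neuron markers, while 1 of 6 meningeal markers was lower. The part of these shifts in the chaperone values, HSPA8 included, was not tested.

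The stress-inducible HSP70 gene itself is not on the list of 37 and was picked after its values were seen. It carries the symbol HSP70 in the deposited table (chromosome 12, 1285282 to 1287670), and RefSeq lists HSPA1 as a synonym of that symbol. Its product is the HSP70 that cells make in large amounts under stress. It had 38.6, 30.7 and 37.4 RPKM in pacing, against 38.3, 178 and 336 RPKM in sham. Sham 1 lay within the pacing range and sham 2 and sham 3 were 5.01 and 9.45 times the pacing mean, the same order as for DNAJB1 and DNAJB4. The log2 difference was -1.87 (SE 0.69, unadjusted p 0.0289, adjusted p 0.492, limma-trend), and reads of near-identical copies of this gene cannot be told apart. The sham order was otherwise for HSPH1 and HSP90AA1, named above as heat-inducible and stress-responsive. In sham 1, 2 and 3 HSPH1 had 160, 124 and 158 RPKM and HSP90AA1 had 2629, 2565 and 2774 RPKM.

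The wider folding and degradation machinery was read from 7 further lists, in which 119 of 127 genes found in the table were tested and 0 passed. Of the 119, 72 were lower by sign and 47 higher, with a median of -0.03. At an unadjusted p under 0.05, 4 were lower, against 6.3% of all genes, and 1 was higher, against 2.85% of all genes. The TRiC chaperonin, which folds actin and tubulin, had 4 of its 8 subunit genes on each side and a median of 0.00, with CCT3 at -0.13 and CCT4 at 0.16. Other cytosolic co-chaperones had 13 of 21 below 0 and a median of -0.03. Among them UNC45A, a myosin and HSP90 co-chaperone, had 16.3, 15.3 and 14.6 RPKM in pacing, against 17.0, 20.5 and 19.4 RPKM in sham, and its log2 difference of -0.28 had an adjusted p of 0.488. The groups did not overlap for UNC45A, and BAG4 was at the other end of that list with 0.21.

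A further list held HSP70, small heat shock protein, HSF and J-domain family genes and SERPINH1. Of the 14 that were found, 9 were tested, with 3 below 0 and a median of 0.12, the value of the J-domain gene DNAJB12. The tested genes were HSPA2, HSPA12B, HSPB6, HSPB11, HSF4, SERPINH1, DNAJB12, DNAJB13 and DNAJB14. The HSP70 symbols HSPA1A, HSPA1B, HSPA1L and HSPA6 were not found. The stress-inducible HSP70 gene given above, at -1.87, was not on this list. SERPINH1, a collagen chaperone of the ER and an HSF1 target, had 1.54, 1.12 and 1.6 RPKM in pacing, against 2.08, 4.01 and 3.06 RPKM in sham. It had the smallest unadjusted p of these lists, 0.00598, and a log2 difference of -0.72 (SE 0.19) with no overlap, but its adjusted p was 0.378. HSPA12B, an endothelial relative of HSPA12A, was at 0.33 (SE 0.18), near the low-value filter with 1.07 ± 0.0445 RPKM in pacing and 0.673 ± 0.421 RPKM in sham. The groups overlapped for HSPA12B, and sham 1 was the highest library.

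Mitochondrial chaperones and proteases beyond the 3 above had 10 of 17 genes below 0 and a median of -0.01. YME1L1, an inner membrane protease, had 48.0, 48.3 and 50.3 RPKM in pacing, against 54.9, 65.5 and 60.3 RPKM in sham. HSCB, a J protein for iron-sulfur cluster assembly, went the other way, with 5.46, 4.82 and 4.98 RPKM in pacing, against 3.76, 4.46 and 3.05 RPKM in sham. Neither gene overlapped between groups, and their log2 differences of -0.29 and 0.37 had adjusted p of 0.457 and 0.487 (limma-trend).

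ER folding enzymes and lectin chaperones had 20 of 25 below 0, with a median of -0.08 and CRELD1 at -0.25 and ERO1A at 0.22 the smallest p in each direction. As for the 9 ER chaperones, sham 2 was the highest library for most, 17 of 25. The calcium-binding chaperone calreticulin (CALR), chosen after the values were seen, had 347, 286 and 324 RPKM in pacing and 344, 499.7 and 327 RPKM in sham. Unfolded protein response sensors and factors had 13 of 20 below 0 and a median of -0.08. NFYA, a subunit of the factor that binds ER stress elements together with ATF6, had 5.16, 4.5 and 4.51 RPKM in pacing, against 5.42, 11.6 and 8.95 RPKM in sham, and its log2 difference of -0.70 had an adjusted p of 0.455. The site-1 protease gene MBTPS1, which cuts ATF6, was at 0.13. ER-associated degradation genes had 9 of 19 below 0 and a median of 0.04, with DERL2 at -0.19 and UBE2G2 at 0.16. Every pacing library lay above every sham library for 4 of the 19 (4.92% of all genes) and below for 0 (11.3%). In this list 0 genes had an unadjusted p under 0.05 (limma-trend) in either direction.

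**Figure D5:**
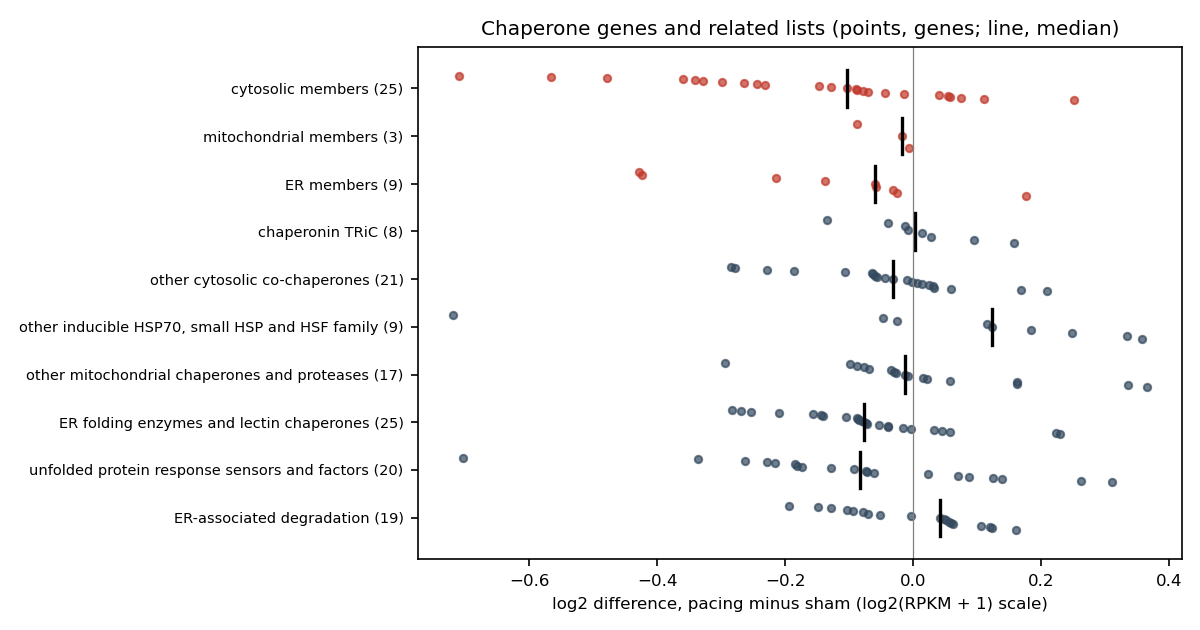
Log2 differences, pacing minus sham, of single genes in the 37 chaperones, drawn by compartment, and in 7 further lists, with a line at each median. Medians run from -0.10 for the cytosolic members to 0.12 for the further list of HSP70, small heat shock protein, HSF and J-domain family genes with SERPINH1.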

How the data were processed

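Hippocampal messenger RNA was sequenced from 3 pacing and 3 sham samples with a stranded kit, per the labels' protocols; the exosome miRNA libraries of the series were not used here. The submitters' processing notes name featureCounts, STAR 2.5.3a and Trimmomatic 0.36 without their order. The strand setting, the annotation and the handling of multiply mapped reads are not stated. The values are RPKM as deposited by the authors. RPKM times gene length gave whole reads (within 0.01) for 100% of values in every library, so depth is known.

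Genes with a mean of at least 0.5 RPKM were tested with limma-trend (limma 3.58.1, R 4.3.3) on log2(RPKM + 1), pacing minus sham, with Benjamini-Hochberg adjustment at 0.05. Fold changes on that scale understate those of low genes. The p-values measure the spread between samples, which the labels do not state to be separate dogs. The chaperones, lists and tests were chosen with earlier results of these data known, and compartments were assigned by hand. Values in every library are given for genes with an unadjusted p under 0.05, for the smallest p in each role, for HSPA8, HSPA5, HSPD1 and HSF1, and for others chosen after their values were seen (HSPA12A, BAG3, DNAJB4, DNAJA1, DNAJB2, CRYAB, HSPB1, HSPE1, HSPA9, DNAJB9 and HSP90B1). From each further list the smallest p in each direction was taken. Alternatives changed pseudocount, filter, scaling, weights, variance trend, replicate block and the libraries included; limma-voom on the recovered reads was added after the data were seen, in place of the planned quasi-likelihood count test, which was not run.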

Additional observations from a re-analysis of the deposited data

How the results depend on the processing

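Genes past the threshold numbered 4, against 7 with no filter on low values, 23 with library quality weights, 7 with the replicate block and 3 to 95 with a library left out (95 without sham 1, 9 without sham 2). Chaperones past the threshold numbered 0 under the alternatives other than leaving out sham 1 (0 to 1 over the libraries left out), where DNAJB1 passed at -1.03. Chaperones lower at an unadjusted p under 0.05 numbered 7, against 1 with median-of-ratios scaling, 1 with TMM scaling, 3 with the replicate block (5.33% of all genes) and 0 to 11 with a library left out. Those with every pacing library below every sham library numbered 15 without sham 1 (25.6% of all genes), 10 without sham 2 (19%) and 5 without sham 3 (15.7%). Without pacing 1, 2 or 3 they numbered 6, 5 and 8, for which the share of all genes is not given. Leaving out a library by construction compares fewer samples. Chaperones below 0 numbered 25 to 30, with cytosolic medians of -0.13 to -0.05, mitochondrial medians of -0.10 to 0.05, ER medians of -0.17 to 0.027 and ER minus cytosolic medians of -0.04 to 0.12 with a library left out. HSPD1 reversed to 0.00095 without sham 3. The cause of these shifts was not tested. By sign, 16 chaperones were lower in all 19 analyses, HSF2 was lower in the 18 that tested it (the filter of 5 RPKM removed it), 2 (DNAJA2 and HSPA13) were higher in all, and 18 took both signs. The filters, the variance trend and the replicate block cannot change a sign, so they only repeat the main analysis here. The share of all genes that kept their sign is not given. The replicate numbers are not stated to pair samples, and the deviations of same-numbered libraries correlated at -0.11, 0.06 and -0.01, so the block is no paired design. The lowest value of any of the 37 genes in a library was 4.17 RPKM (HSF2, sham 2) at 35003483 reads or more. With that depth, 3 libraries a group and the spread among the sham libraries limit the precision.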
